A study of Mus musculus with 24 samples.

Results

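The report concerns 8 transcription factors of the nephron lineage (Hnf4a, Hnf4g, Pax2, Pax8, Esrrb, Tfcp2l1, Tfap2b and Maf), measured by RNA sequencing in 24 mouse libraries. They were chosen by gene symbol, looked up from the Ensembl identifiers of the deposited expression table, and are 8 of its 30153 genes. Each of 6 groups had 4 animals, all of the C57/BL6 strain by the labels, and the source of every library is labelled kidney. The study asked how a western diet (WD, an energy-rich rodent chow) affects the renal transcriptome of mice that overexpress the human angiotensin receptor type 1 gene, the receptor of the pressor hormone angiotensin II.

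Hap-I and Hap-II are lines with haplotype I or haplotype II of that human gene, and C57 mice are the group without a haplotype in its label. The groups were aged Hap-I mice on WD, adult Hap-I mice on WD, adult Hap-II mice on WD, aged Hap-I mice, adult Hap-I mice and adult C57 mice. The last 3 labels name no diet, so the absence of WD there is read from the labels' silence. There was no C57 group on WD and no Hap-II group without it. Haplotype and diet therefore cannot be told apart in any comparison of a WD group with C57. Age cannot be told apart from them either where the aged Hap-I WD group is compared with adult C57 mice. The sources used here do not say which promoter drove the human gene, how many founders each line had, or the exact age and the sex of the mice.

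The nephron is the tubule that filters and reabsorbs, and its segments keep their identity through combinations of such factors. The paired-box proteins Pax2 and Pax8 act first, in the embryonic intermediate mesoderm, and together are required for nephron formation in mice. The nuclear receptor Hnf4a drives proximal tubule differentiation in mice, while Esrrb, Tfcp2l1 and Tfap2b are known for the more distal segments and the collecting duct.

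Values are TPM, transcript abundances scaled to a fixed total per library, which the authors deposited per gene and which correct for transcript length, so levels of different genes can be set side by side. TPM keep no read depth, so depth is unknown. Tests were run with limma on log2(TPM + 1), a scale that understates the change of low genes, and p-values were adjusted over all genes tested by the Benjamini-Hochberg method. A gene is called where the adjusted p is below 0.05. Nothing in the labels beyond the count of animals says how replicates were kept apart, so p-values measure the spread between these libraries.

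Before any result, the 8 libraries labelled Hap-I without WD have to be set apart, because their content goes against the kidney label. Proximal marker sums were 47.8 to 5468 TPM there, and in the highest of these libraries, replicate 2 of adult Hap-I, Ttr alone had 5403 TPM, a gene that is also a choroid plexus marker. Summed TPM of 12 neuronal markers was 7383 to 9230 in these 8 libraries, at most 14.7 in the 12 WD libraries and at most 21.0 in the 4 C57 libraries. Of 32 proximal tubule markers, 24 had a median under 1 TPM in the 8 libraries, and none did in the other 16. These 8 libraries are called here by their labels, and the kidney comparisons use the other 16. Genes above 0 ranged between 15975 and 18761 per library over all 24.

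Of the 8 factors, 6 have promoters in the RefSeq table (build GRCm38.p6), which holds 250 bases before and 50 after each start, and 10 such windows were searched on both strands. Windows are shown for the factor with the highest level (Hnf4a) and for the pair of distal factors named most in the results, Esrrb and Tfcp2l1. Capitals mark every match to the motifs named in the next paragraph, on either strand.
Hnf4a start 1, chr2:163506607-163506906, plus strand: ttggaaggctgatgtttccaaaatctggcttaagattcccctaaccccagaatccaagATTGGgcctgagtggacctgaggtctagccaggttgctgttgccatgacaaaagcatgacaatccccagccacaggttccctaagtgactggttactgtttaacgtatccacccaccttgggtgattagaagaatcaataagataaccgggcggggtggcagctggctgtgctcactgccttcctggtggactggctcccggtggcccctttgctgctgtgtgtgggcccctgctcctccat
Hnf4a start 2, chr2:163546905-163547204, plus strand: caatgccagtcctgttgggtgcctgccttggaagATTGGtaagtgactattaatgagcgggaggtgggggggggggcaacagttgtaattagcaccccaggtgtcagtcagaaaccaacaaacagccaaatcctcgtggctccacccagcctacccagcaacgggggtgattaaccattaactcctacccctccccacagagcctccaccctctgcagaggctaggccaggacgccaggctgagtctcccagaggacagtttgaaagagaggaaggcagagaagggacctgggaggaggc
Esrrb start 1, chr12:86360867-86361166, plus strand: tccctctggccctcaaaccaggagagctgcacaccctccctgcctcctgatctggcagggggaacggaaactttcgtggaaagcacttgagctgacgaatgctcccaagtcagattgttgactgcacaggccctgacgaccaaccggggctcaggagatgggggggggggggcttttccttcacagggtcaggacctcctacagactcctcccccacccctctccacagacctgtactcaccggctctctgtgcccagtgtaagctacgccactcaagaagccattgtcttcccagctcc
Esrrb start 2, chr12:86421394-86421693, plus strand: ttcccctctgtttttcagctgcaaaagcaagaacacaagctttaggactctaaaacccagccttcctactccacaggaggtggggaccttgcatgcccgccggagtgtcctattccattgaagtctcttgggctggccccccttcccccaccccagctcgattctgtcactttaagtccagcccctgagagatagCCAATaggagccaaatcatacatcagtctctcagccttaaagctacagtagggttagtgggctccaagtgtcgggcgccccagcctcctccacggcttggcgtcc
Tfcp2l1 start 1, chr1:118627695-118627994, plus strand: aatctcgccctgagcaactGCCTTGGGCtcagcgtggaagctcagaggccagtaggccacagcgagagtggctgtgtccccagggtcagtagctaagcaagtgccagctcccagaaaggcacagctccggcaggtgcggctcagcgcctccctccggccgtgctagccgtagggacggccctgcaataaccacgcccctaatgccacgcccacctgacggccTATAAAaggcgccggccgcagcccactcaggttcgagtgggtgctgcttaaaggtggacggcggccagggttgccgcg

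The Tfcp2l1 window holds the TATA box letters TATAAA at position -28 (13.6% of 32851 mouse promoter windows of the same length) and GCCNNNGGC, the AP-2 consensus, at position -231 (16.6%). GCCNNNGGC was also matched in the second Pax2 window, at positions -108 and +41. The CCAAT box (CCAAT, 37.4% of windows) lies at -192 in the first and -216 in the second Hnf4a window, at -55 in the second Esrrb window and at -57 in the Pax8 window. The first Esrrb window matched none of the 8 motifs searched. No window of any of the 6 genes held AGGTCA for nuclear receptors (16.3% of all windows) or TCAAGGTCA for estrogen-related receptors (0.423%). Likewise none held CAAAGTCCA for HNF4 proteins (0.475%), TGCTGAC for MAF proteins (4.67%) or the spaced site of Tfcp2l1 itself (3.44%). The table gives a level per gene, so it does not say which start was used.

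In the 16 libraries with nephron content, Hnf4a was the most abundant of the 8 factors in every library, at 68.9 to 229 TPM. Pax8, Tfcp2l1 and Maf followed with medians of 21.8, 20.5 and 14.5 TPM, and their order changed from library to library. Tfap2b, Esrrb, Pax2 and Hnf4g had medians of 4.27, 3.91, 3.66 and 2.26 TPM over the same libraries, with ranges that overlap throughout. None of these 8 medians was under 1 TPM. Members of a family kept a fixed order: Hnf4a exceeded its paralogue Hnf4g by 25.1 to 143 times, and Pax8 exceeded Pax2 by 3.81 to 11.3 times.

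**Figure D1:**
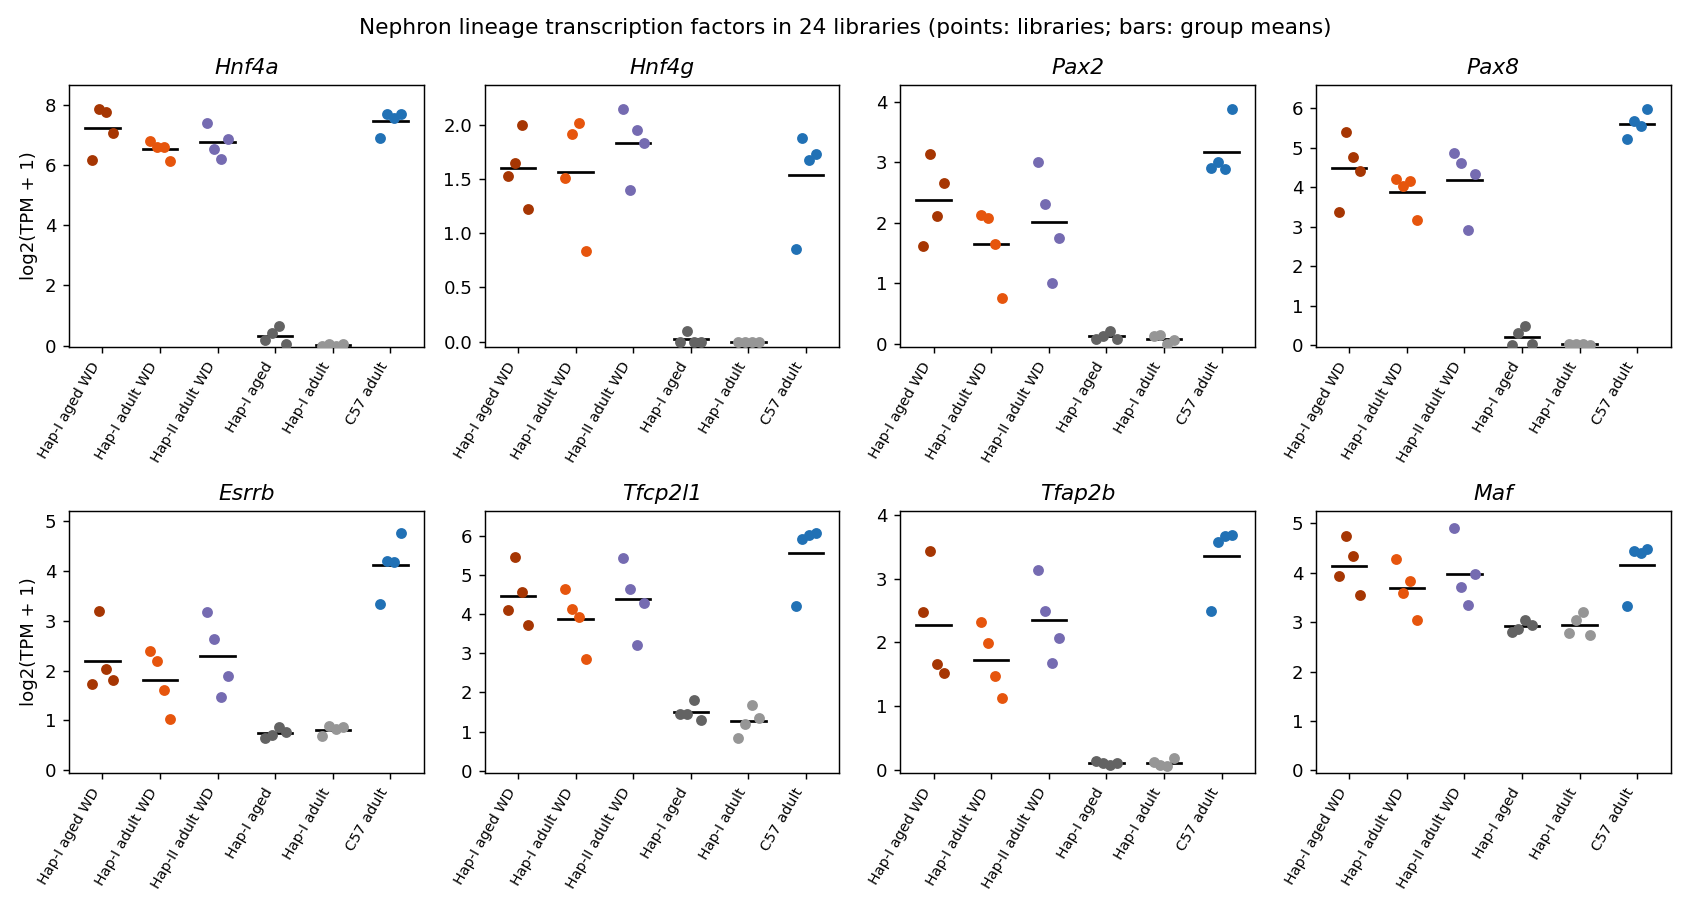
Level of each factor as log2(TPM + 1) (vertical axis) in each library of the 6 groups (horizontal axis), with points for libraries and bars for group means of 4. Esrrb is below all C57 libraries in all 12 WD libraries, and 6 of the 8 factors are under 1 TPM in all 8 libraries labelled Hap-I without WD.

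Pax8, which marks the whole nephron from its first vesicle, had 9.33, 40.8, 26.04 and 20.2 TPM in aged Hap-I WD libraries, 17.3, 15.3, 16.7 and 7.94 TPM in adult Hap-I WD libraries, 28.4, 23.4, 6.53 and 19.2 TPM in Hap-II WD libraries, and 36.4, 49.8, 45.9 and 62.0 TPM in C57 libraries. Both adult WD groups lay below every C57 library, and 3 of 4 aged WD libraries did. In adult Hap-I mice on WD Pax8 fell by 1.72 on the log2 scale relative to C57 (SE 0.43, adjusted p = 0.00409). In Hap-II mice on WD it fell by 1.42 (SE 0.43, adjusted p = 0.0194), and in aged Hap-I mice on WD the difference was -1.13 (adjusted p = 0.0705). In bulk tissue, fewer cells of a type and less RNA per cell cannot be told apart.

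Pax2, the paralogue that is also needed for the ureteric bud in mice, had 2.08, 7.82, 3.32 and 5.31 TPM in aged Hap-I WD libraries, 3.36, 3.21, 2.13 and 0.70 TPM in adult Hap-I WD libraries, 7.04, 3.95, 1.02 and 2.35 TPM in Hap-II WD libraries, and 6.48, 7.03, 6.37 and 13.7 TPM in C57 libraries. Only the adult Hap-I WD group was free of overlap with C57. The change over C57 was -1.52 (SE 0.43, adjusted p = 0.00757) in adult Hap-I WD mice, -1.15 (SE 0.43, adjusted p = 0.0428) in Hap-II WD mice and -0.79 (adjusted p = 0.170) in aged Hap-I WD mice. The call in Hap-II WD mice held under 5 of 17 alternative settings.

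Hnf4a, the nuclear receptor of the proximal tubule, had 70.4, 229, 213 and 133 TPM in aged Hap-I WD libraries, 110.3, 94.9, 95.4 and 68.9 TPM in adult Hap-I WD libraries, 166, 91.7, 72.0 and 116 TPM in Hap-II WD libraries, and 116, 206, 187 and 203 TPM in C57 libraries. The adult Hap-I WD libraries were all below C57, while the highest aged WD libraries exceeded every C57 library. Hnf4a averaged 92.4 ± 17.2 TPM in adult Hap-I WD mice and 178 ± 41.9 TPM in C57 mice (SD, n = 4 each), a log2 change of -0.92 (SE 0.34, adjusted p = 0.0271 by limma) that became 0.092 after median-of-ratios rescaling. It was not called in the aged (log2 change -0.24, adjusted p = 0.585) or the Hap-II group (-0.70, adjusted p = 0.10).

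Hnf4g, the low paralogue shared with intestine, ranged between 0.784 and 3.43 TPM in the 12 WD libraries and between 0.811 and 2.67 TPM in C57. Its groups overlapped in all comparisons of WD with C57, and its log2 changes of 0.063 (95% interval -0.55 to 0.68) in aged Hap-I, 0.033 (-0.58 to 0.65) in adult Hap-I and 0.30 (-0.32 to 0.91) in Hap-II WD mice were not called. Maf, a leucine zipper factor best known from the lens and also expressed in proximal tubule, had 14.3, 25.7, 19.1 and 10.7 TPM in aged Hap-I WD libraries, 18.4, 11.02, 13.3 and 7.21 TPM in adult Hap-I WD libraries, 28.8, 12.1, 9.14 and 14.8 TPM in Hap-II WD libraries, and 9.01, 20.7, 20.2 and 21.3 TPM in C57 libraries. These groups overlapped too, and C57 replicate 1 was lower than every WD library except replicate 4 of adult Hap-I WD. The log2 changes of Maf were -0.027, -0.48 and -0.18 in the same order of groups, none of them called, and all turned positive after median-of-ratios rescaling (0.53, 0.47 and 0.51).

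Esrrb, an orphan receptor related to the estrogen receptors and expressed in thick limb and distal tubule, had 2.34, 8.18, 3.07 and 2.53 TPM in aged Hap-I WD libraries, 4.27, 3.56, 2.04 and 1.04 TPM in adult Hap-I WD libraries, 8.07, 5.19, 1.75 and 2.71 TPM in Hap-II WD libraries, and 9.01, 17.2, 17.2 and 25.9 TPM in C57 libraries. All 12 WD libraries lay below all 4 C57 libraries. The WD means were 23.3%, 15.7% and 25.6% of the C57 mean of 17.3 ± 6.89 TPM in the aged Hap-I, adult Hap-I and Hap-II groups. Esrrb was called lower in all of them, by limma, with log2 changes of -1.92 (SE 0.43, adjusted p = 0.0136), -2.31 (SE 0.43, adjusted p = 0.00126) and -1.82 (SE 0.43, adjusted p = 0.00736). Only 1.36%, 1.63% and 2.30% of the 12923 genes tested had a more negative change in those comparisons. Without C57 replicate 4, its highest library, Esrrb missed the threshold in aged Hap-I WD mice (adjusted p = 0.0541).

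Tfcp2l1, a grainyhead-related factor of collecting duct and distal tubule in mice, had 16.2, 42.7, 22.7 and 12.2 TPM in aged Hap-I WD libraries, 24.0, 16.4, 14.1 and 6.24 TPM in adult Hap-I WD libraries, 42.2, 24.1, 8.32 and 18.4 TPM in Hap-II WD libraries, and 17.6, 59.2, 64.0 and 65.7 TPM in C57 libraries. C57 replicate 1 fell among the WD libraries, and the other 3 were above all 12 of them. Tfcp2l1 fell by 1.67 relative to C57 in adult Hap-I WD mice (SE 0.52, adjusted p = 0.0120), and was not called in aged Hap-I (-1.09, adjusted p = 0.123) or Hap-II WD mice (-1.16, adjusted p = 0.0794).

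Tfap2b, the AP-2 protein required for distal convoluted tubule development in mice, had 4.57, 9.80, 2.16 and 1.88 TPM in aged Hap-I WD libraries, 3.97, 2.99, 1.76 and 1.18 TPM in adult Hap-I WD libraries, 7.82, 4.64, 2.21 and 3.19 TPM in Hap-II WD libraries, and 4.65, 10.9, 11.8 and 11.95 TPM in C57 libraries. Again C57 replicate 1 was the lowest of its group. Tfap2b fell by 1.64 in adult Hap-I WD mice relative to C57 (SE 0.43, adjusted p = 0.00526), and its changes of -1.09 in aged Hap-I (adjusted p = 0.0783) and -1.01 in Hap-II WD mice (adjusted p = 0.0665) were not called.

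Counted over the 8 factors, 6 were called lower in adult Hap-I WD mice relative to C57, where 59.7% of all genes tested were called lower. After median-of-ratios rescaling, 2317 genes were called higher and 1779 lower there, where 294 were higher and 7715 lower before it. In aged Hap-I WD mice it was 1 of 8, against 16.3% of genes, and in Hap-II WD mice 3 of 8, against 36.9%. Rescaling gave 446 genes higher and 494 lower in aged Hap-I WD mice (160 and 2100 before it), and 1661 higher and 1216 lower in Hap-II WD mice (353 and 4774 before it). These counts stand near the background of each comparison and are not a result about the factors. The 3 comparisons share the C57 libraries. The median log2 change of all genes was -0.48, -0.80 and -0.59 in aged Hap-I, adult Hap-I and Hap-II WD mice, and that of the 8 factors was -0.94, -1.58 and -1.08. Median-of-ratios rescaling moved the medians of all genes to 0.024, 0.0012 and 0.0066, and Esrrb was still called lower in all 3 groups. On that scale Pax8 was called lower in adult Hap-I and Hnf4g higher in Hap-II mice, and no other factor was called.

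**Figure D2:**
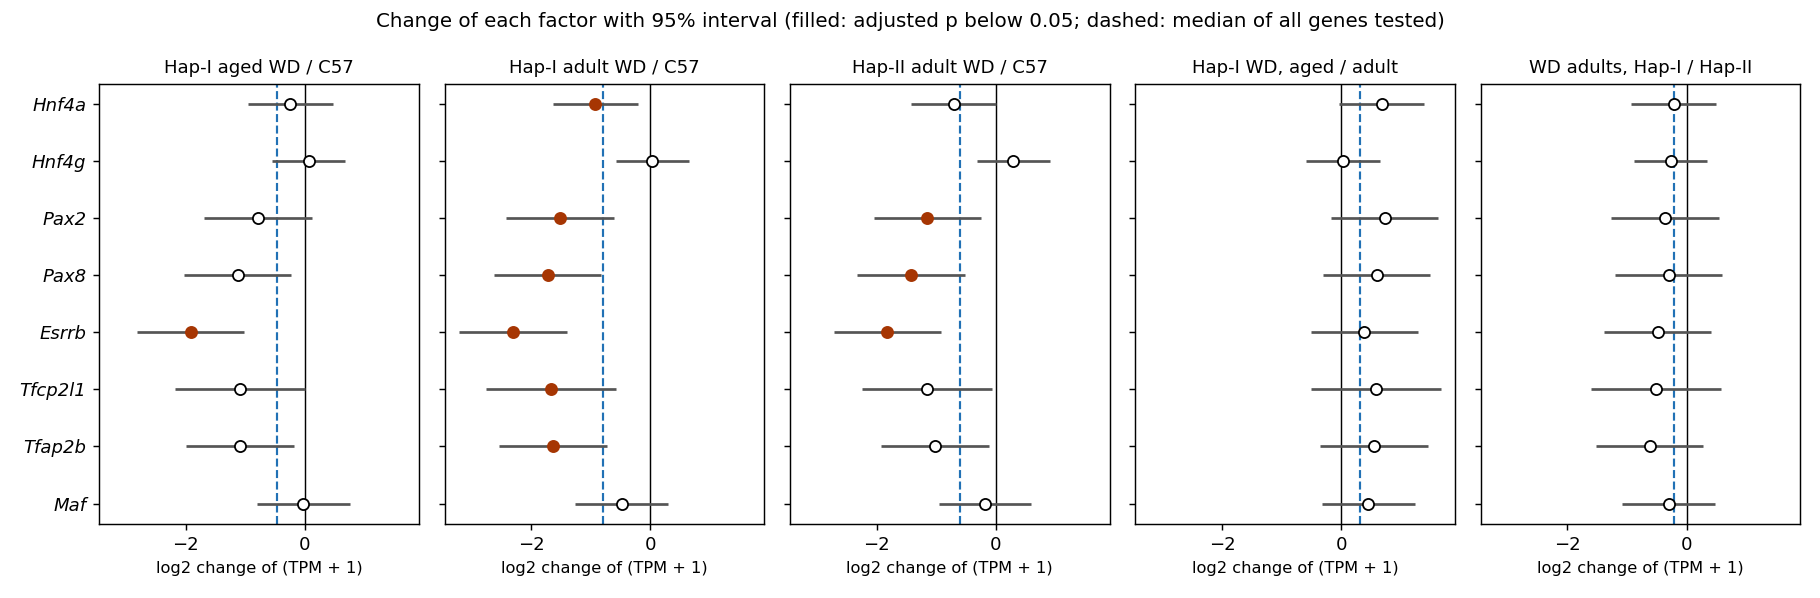
Log2 change of TPM + 1 (horizontal axis) with its unadjusted 95% interval for the 8 factors in 5 comparisons of the 16-library fit. Filled points have an adjusted p below 0.05 and the dashed line is the median of 12923 genes, at -0.80 in adult Hap-I WD over C57. Esrrb lies farthest to the left in each comparison with C57.

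Several other measures separated the WD from the C57 libraries. Mitochondrially encoded transcripts took 21.2 to 35.7% of TPM in the 12 WD libraries and 12.4 to 16.9% in C57. Eif2s3y, which lies on the Y chromosome, was at 5 TPM or more in 7 WD libraries out of 12 and in no C57 library. Among WD libraries, Esrrb had 1.04 to 3.56 TPM in those 7 and 2.34 to 8.18 TPM in the other 5, all below the lowest C57 value of 9.01 TPM. With the average level of Y-linked genes added to the fit, Esrrb was called lower in all 3 comparisons, Pax8 in adult Hap-I WD mice, and no other factor. The WD libraries are also titled apart from the C57 libraries, with the letters A, B and C. The C57 libraries share the letter S and its numbering with the libraries labelled Hap-I without WD. The part of these differences in the results was not tested.

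The distal factors can be set beside the transcripts of the segments they belong to. Summed TPM of 20 thick limb and distal convoluted tubule markers was 580 to 3352 in WD libraries, with a median of 1295, and 2842 to 5425 in C57 libraries. Sums over 25 collecting duct markers were 133 to 833 TPM in WD libraries and 1052 to 1490 TPM in C57 libraries, without overlap. Sums over 32 proximal tubule markers overlapped, at 14731 to 37702 TPM in WD and 21309 to 27672 TPM in C57 libraries. No marker of the thick limb or proximal lists was at 0 in all libraries of either set, and in the collecting duct list Slc4a9 was at 0 in all 16 and Slc14a2 in the C57 libraries. Other cell types differed too, with sums over stromal markers of 43.1 to 119 TPM in WD and 209.7 to 310 TPM in C57 libraries, over endothelial markers of 109 to 351 and 361 to 458 TPM, and over urothelial markers of 2.31 to 63.6 and 51.9 to 198 TPM. The part of these cell types and segments in the changes of Esrrb, Tfcp2l1 and Tfap2b was not tested.

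All 23 collecting duct markers tested were called lower in adult Hap-I WD mice, 14 in aged Hap-I and 15 in Hap-II WD mice, where 59.7%, 16.3% and 36.9% of all genes were called lower. After rescaling, 14, 8 and 7 of the 23 were called lower, where 1779, 494 and 1216 of 12715 genes were. Before rescaling, the markers with the largest changes included Scnn1a, a subunit of the epithelial sodium channel, with 6.60 ± 3.58 TPM in adult Hap-I WD and 52.0 ± 16.04 TPM in C57 mice (log2 change -2.87, adjusted p = 0.00136). Rhcg, an ammonia channel of intercalated cells, had 18.7 ± 7.33 TPM in adult Hap-I WD and 97.4 ± 14.5 TPM in C57 mice (-2.38, adjusted p = 0.000825). Slc26a4, the anion exchanger pendrin, had 8.19 ± 3.83 TPM in Hap-II WD and 41.0 ± 9.02 TPM in C57 mice (-2.25, adjusted p = 0.00153).

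Of the 20 thick limb and distal convoluted tubule markers, 16, 12 and 7 were called lower in adult Hap-I, aged Hap-I and Hap-II WD mice, beside the same shares of all genes, which the count in Hap-II mice does not exceed. After rescaling 9, 6 and 1 were called lower, where 1779, 494 and 1216 of 12715 genes were. Slc12a1, the furosemide-sensitive cotransporter of the thick limb, had 74.2 ± 48.9 TPM in adult Hap-I WD and 433 ± 160 TPM in C57 mice (-2.79, adjusted p = 0.00251). Calb1, a calcium buffer of the distal convoluted tubule, had 29.0 ± 23.8 TPM in aged Hap-I WD and 149 ± 37.3 TPM in C57 mice (-2.70, adjusted p = 0.0160). Cldn10, a tight junction protein, was called higher in Hap-II WD mice, with 351 ± 71.8 TPM there and 215 ± 17.0 TPM in C57 mice (0.68, adjusted p = 0.0121).

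Of 32 proximal tubule markers, 12, 4 and 8 were called lower in adult Hap-I, aged Hap-I and Hap-II WD mice, in each case a smaller share than the 59.7%, 16.3% and 36.9% of all genes. Their median changes of -0.73, -0.45 and -0.36 became 0.21, 0.14 and 0.37 after rescaling. On that scale 5, 4 and 4 of the 32 were called lower and 3, 0 and 3 higher. Of all 12715 genes tested there, 1779, 494 and 1216 were called lower and 2317, 446 and 1661 higher. The share of proximal markers called lower was then not smaller than that of all genes. Before rescaling, the largest changes were those of Slc22a7, an organic anion transporter, and of the endocytic receptors Lrp2 and Cubn. Slc22a7 had 23.9 ± 17.9 TPM in adult Hap-I WD and 242 ± 40.7 TPM in C57 mice (-3.50, adjusted p = 0.00149). Lrp2 had 24.9 ± 11.3 TPM in adult Hap-I WD and 243 ± 60.7 TPM in C57 mice (-3.29, adjusted p = 0.000788). The 4 markers called in aged Hap-I WD mice were Slc22a7, Lrp2, Cubn and the water channel gene Aqp1. Before rescaling, Ttr was the only proximal marker called higher, in adult Hap-I WD (1.49, adjusted p = 0.00411), where 2.28% of all genes were called higher, and in Hap-II WD mice (adjusted p = 0.0379), where 2.73% were.

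Other transcription factors of the nephron, a list of 44 of which 41 were tested, gave 26, 9 and 14 called lower and none called higher in adult Hap-I, aged Hap-I and Hap-II WD mice, shares near those of all genes (59.7%, 16.3% and 36.9% called lower). Their median changes of -0.99, -0.50 and -0.75 stand beside all-gene medians of -0.80, -0.48 and -0.59. After rescaling 11, 4 and 6 were called lower and 1, 1 and 2 higher. Of 12715 genes tested on that scale, 1779, 494 and 1216 were called lower and 2317, 446 and 1661 higher. Before rescaling, the largest changes were in Ehf and Elf3, epithelial factors of the ETS family, and in Elf5 and Foxi1 of the collecting duct. Ehf had 4.83 ± 2.83 TPM in aged Hap-I WD, 3.36 ± 1.95 TPM in adult Hap-I WD, 5.99 ± 3.43 TPM in Hap-II WD and 24.5 ± 9.80 TPM in C57 mice. Foxi1, which specifies intercalated cells, was called in the adult Hap-I (-2.09, adjusted p = 0.00177) and Hap-II WD groups (-1.45, adjusted p = 0.0180). Gata3, of the collecting duct lineage, had 1.58 to 7.75 TPM in WD and 10.7 to 16.4 TPM in C57 libraries. Lhx1, an early nephron factor, had 1.25 to 6.95 TPM in WD and 2.35 to 7.498 TPM in C57 libraries.

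A scale common to all genes of a library largely cancels when each factor is set against Hnf4a of the same library. This ratio was chosen after values had been seen and is given as a description. Exact permutation tests of the ratios against C57, 21 in all, each gave an adjusted p of 0.06 or more. The smallest p that 4 libraries against 4 can give is 0.0286, which Esrrb had in every WD group. Adjustment raised that p to 0.06, so even ratios without overlap could not be called here. The log2 ratio of Esrrb to Hnf4a averaged -5.01 in aged Hap-I WD, -4.72 in adult Hap-I WD, -4.45 in Hap-II WD and -3.34 in C57 libraries, and every WD library was below every C57 library. On the linear scale Hnf4a exceeded Esrrb by 17.7 to 69.6 times in WD and by 7.82 to 12.9 times in C57 libraries. Pax8 relative to Hnf4a averaged -2.72 in aged Hap-I WD, -2.64 in adult Hap-I WD, -2.56 in Hap-II WD and -1.84 in C57 libraries, with 11 of the 12 WD libraries below all of C57. Maf relative to Hnf4a was higher than in C57 by 0.44 in adult Hap-I and 0.52 in Hap-II WD mice, without overlap on this scale. Hnf4g relative to Hnf4a was higher by 0.95 and 1.00 in those groups, also without overlap on this scale. Without the added 1 TPM, adult Hap-I WD and C57 libraries overlapped for both factors. Hnf4a exceeded Hnf4g by 31.3 to 88.0 times in adult Hap-I WD, 25.1 to 55.8 times in Hap-II WD and 77.0 to 143 times in C57 libraries.

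**Figure D3:**
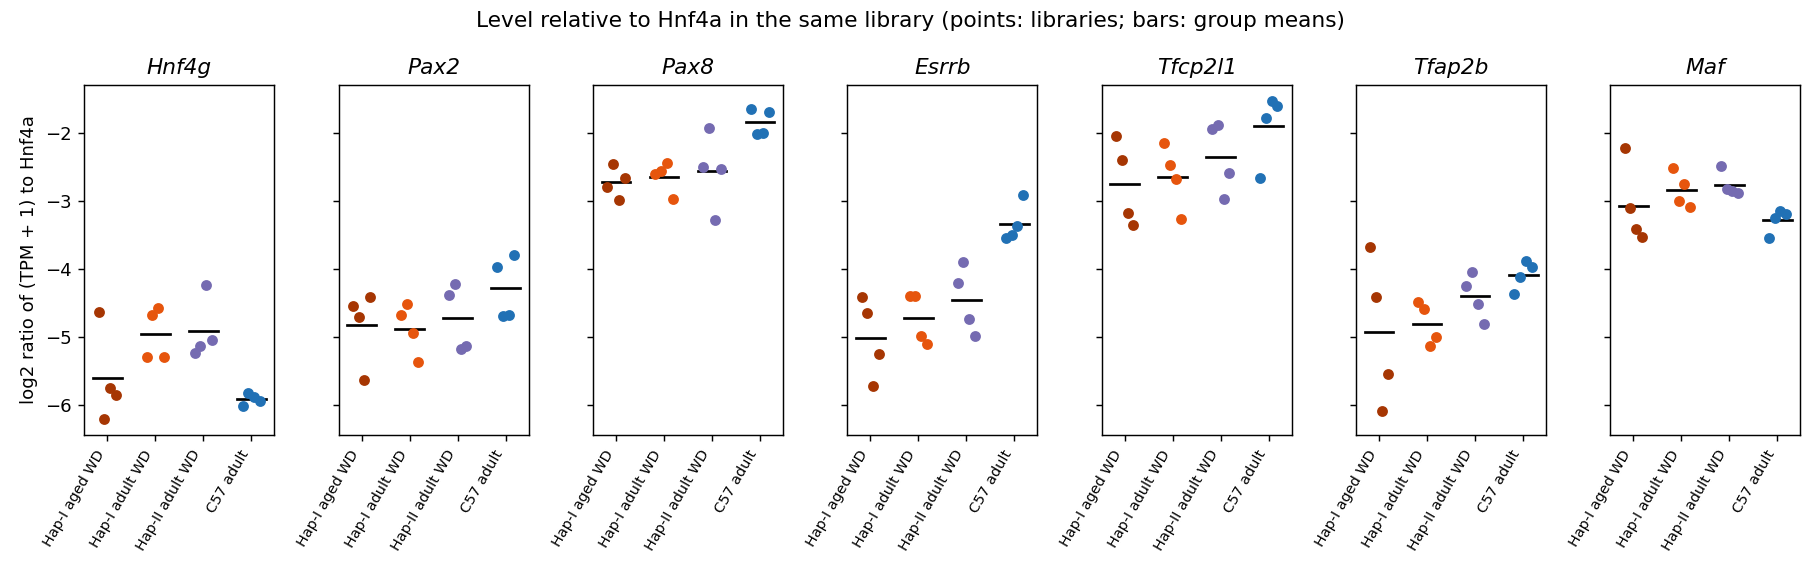
Log2 ratio of TPM + 1 of 7 factors to that of Hnf4a (vertical axis) in the 16 libraries with nephron content, by group (horizontal axis), with points for libraries and bars for means of 4. Esrrb is lower in all WD libraries than in any C57 library, while Maf and Hnf4g are higher in both adult WD groups.

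The age comparison on WD set aged against adult Hap-I mice. None of the 8 factors was called, where 0.031% of 12923 genes were called, that is 4 genes (2080 at an unadjusted p below 0.05). On the log2 scale all 8 values were higher in aged mice, except that Hnf4g was at -0.24 after rescaling, and 17.8% of all genes were lower. The mean TPM of Hnf4g was 2.09 ± 0.696 in aged and 2.11 ± 1.02 in adult mice. Hnf4a averaged 162 ± 73.8 TPM in the aged group and 92.4 ± 17.2 TPM in the adult group (log2 difference 0.68, 95% interval -0.035 to 1.39, adjusted p = 0.322). Pax2 averaged 4.63 ± 2.51 TPM in the aged group and 2.35 ± 1.23 TPM in the adult group (0.73, interval -0.17 to 1.63, adjusted p = 0.374). The other 6 differences lay between 0.030 for Hnf4g and 0.60 for Pax8, beside an all-gene median of 0.32, and the groups overlapped for all 8 factors. The intervals reach 1.63 for Pax2 and 1.67 for Tfcp2l1, so they do not exclude differences up to those sizes. Genes called higher with age, 3 in all, were 12 without replicate 1 of adult Hap-I WD and 20 without replicate 4 of aged Hap-I WD.

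The haplotype comparison set adult Hap-I against adult Hap-II mice, both on WD, and again no factor was called, where 0.0774% of genes were called, that is 10 genes (421 at an unadjusted p below 0.05). Genes called lower, 7 of these 10, were 2 without replicate 1, 2 or 4 of Hap-II WD, and 4 without any other single library of the pair of groups. All 8 values were lower in Hap-I mice, except that Hnf4a was at 0.061 after rescaling, and 83.0% of all genes were lower too. Tfap2b showed the widest difference, with 2.48 ± 1.25 TPM in the Hap-I group and 4.46 ± 2.45 TPM in the Hap-II group (-0.62, 95% interval -1.52 to 0.28, adjusted p = 0.817). The other 7 differences lay between -0.51 for Tfcp2l1 and -0.22 for Hnf4a, beside an all-gene median of -0.22, and all groups overlapped.

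Several libraries were the highest or lowest of their group for most factors. Replicate 2 of aged Hap-I WD was the highest of its group for 7 factors, replicate 1 of adult Hap-I WD for 7 and replicate 1 of Hap-II WD for all 8. The lowest were replicate 4 of adult Hap-I WD for all 8, replicate 3 of Hap-II WD for 7 and C57 replicate 1 for 7. In aged Hap-I WD the lowest values were split between replicates 1 and 4, with 4 factors each. In Hap-I adults without WD the highest values were spread over replicates 2, 3 and 4, and Hnf4g was at 0 in all 4 libraries. The lowest libraries of both adult WD groups also had the fewest genes above 0, with 15975 and 15999. C57 replicate 1 had 1522 TPM over 12 lymphocyte markers and 198 TPM over 7 urothelial markers, and the other C57 libraries had 171 to 307 and 51.9 to 89.8 TPM. The part of these features in the levels of the factors was not tested. Without C57 replicate 1, 5 factors were called lower in Hap-II WD mice and 3 in aged Hap-I WD mice, where 5265 and 2871 of 12799 genes were. Without the libraries with the fewest genes, 5, 2 and 1 factors were called lower in adult Hap-I, aged Hap-I and Hap-II WD mice. Of all 12872 genes tested in that setting, 6209, 3354 and 2054 were called lower.

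Similarity of pattern was measured as the mean absolute difference between the ranks of the 16 libraries for a pair of genes, among 7707 named genes with a mean of 5 TPM or more, without a test, and the points share libraries and groups. The gene closest to Esrrb was Sort1, at 0.125 ranks, where the median over all genes was 2.38. Those closest to Hnf4a were Agap1 and Rxra, both at 0.625, and Rxra encodes a nuclear receptor partner. Aars and Prkaca were closest to Pax8 (0.25 and 0.375), Kifc3 and Pbx2 to Pax2 (both 0.75), and Appbp2 and Rdh13 to Tfcp2l1 (both 0.625). Egfl6 and Scg5 were closest to Tfap2b (both 0.75), and Evi5 and Pde8a to Maf (both 0.875). Between factors, Esrrb and Pax8, Esrrb and Tfcp2l1, and Tfap2b and Tfcp2l1 were the closest pairs, at 1.38 ranks each. Hnf4g stood apart from the other 7 at 3.63 to 5.63 ranks, and its nearest genes, Smpdl3a and Fundc1, were at 2.00 and 2.13.

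In the 8 libraries labelled Hap-I without WD, 6 of the 8 factors were under 1 TPM throughout. Hnf4g was listed at 0 in 7 of these libraries, Hnf4a reached at most 0.585 TPM, Pax8 at most 0.392 TPM, Pax2 at most 0.167 TPM and Tfap2b at most 0.131 TPM. Esrrb remained at 0.571 to 0.843 TPM and Tfcp2l1 at 0.797 to 2.49 TPM. Maf was the factor with the highest level there, at 5.67 to 8.27 TPM, and the only member whose range overlapped that of the other 16 libraries, 7.21 to 28.8 TPM. The other 7 were lower in all 8 libraries than in any of the 16, as were 6.07% of all 30153 genes. Relatives of the same families took other levels. Pax6, a factor of eye and brain, had 6.27 to 9.56 TPM in the 8 libraries and at most 0.630 TPM in the other 16. Grhl1, a grainyhead protein related to Tfcp2l1, had 10.9 to 17.7 TPM in the 8 and at most 1.299 TPM in the 16 libraries. Of 24 relatives, 7 were higher in all 8 than in any of the 16 libraries (Pax6, Grhl1, Mafa, Mafg, Nrl, Rxrb and Rxrg) and none was lower in all 8, where 22.4% of all genes were higher and 6.07% lower in that sense. The share of relatives that were higher is near that of all genes. Rxrb, a nuclear receptor partner, was called lower in adult Hap-I WD mice relative to C57 (-0.92, adjusted p = 0.0076), but not after rescaling. Grhl1 had at most 0.537 TPM in WD and 1.09 to 1.299 TPM in C57 libraries and passed the filter on low values only through C57, so its difference is given without a test. Esrra and Esrrg, the relatives of Esrrb, had 15.2 to 32.0 and 3.96 to 10.3 TPM in the 8 libraries, beside 26.9 to 50.3 and 4.52 to 20.2 TPM in the 16. Over the same libraries 27 of 44 other nephron factors were lower in all 8 than in any of the 16, beside the 6.07% of all genes, and the mineralocorticoid receptor gene Nr3c2 was higher.

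**Figure D4:**
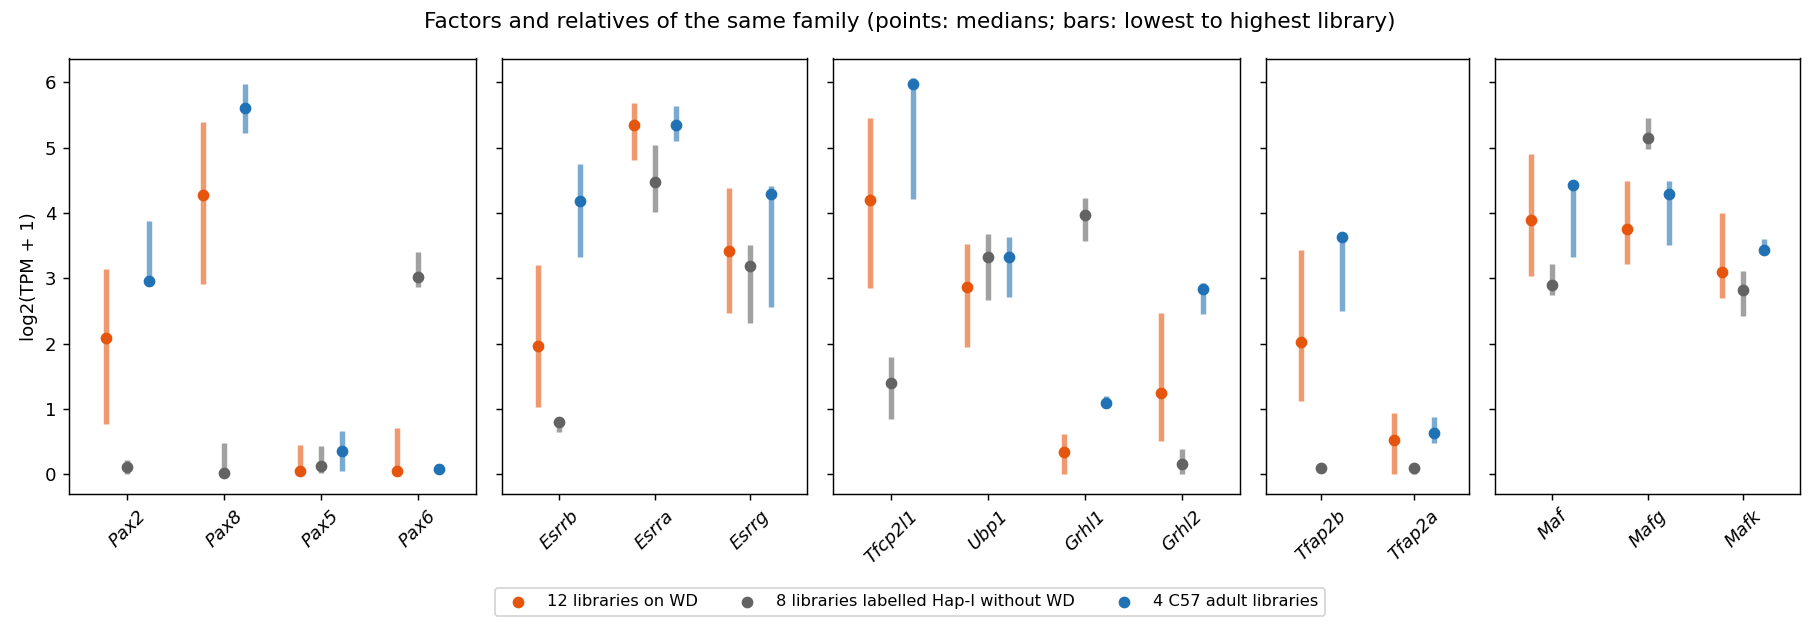
Factors and some relatives of 5 families as log2(TPM + 1) (vertical axis), with points for medians and bars from the lowest to the highest library, in 12 WD libraries, 8 libraries labelled Hap-I without WD and 4 C57 libraries. Pax6 is at 6.27 to 9.56 TPM in the 8 libraries and at most 0.630 TPM in the other 16, while Pax8 is at most 0.392 TPM in the 8.

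Comparisons across that divide were made because the design implies them, in a fit of all 24 libraries. The labelled diet, or haplotype, and the neuronal content cannot be told apart in them. Eif2s3y of the Y chromosome also had 6.59 to 25.4 TPM in adult Hap-I libraries without WD and at most 0.107 TPM in C57 libraries. The part of this difference was not tested. All of the factors except Tfcp2l1 and Maf, 6 of 8, passed the filter only through the other 16 libraries and so had to differ, and the counts here are descriptions. All 8 factors were called higher in adult Hap-I mice on WD than in adult Hap-I mice without it, where 16.9% of 15200 genes were called higher, and all 8 in aged Hap-I mice on WD relative to aged Hap-I mice without it, where 20.5% were. Relative to C57 adults all 8 were called lower in Hap-I adults without WD, where 25.6% of genes were called lower. The smallest change with WD in adults was that of Maf, at 12.5 ± 4.67 TPM with WD and 6.78 ± 1.22 TPM without (log2 change 0.74, adjusted p = 0.0384), and the groups overlapped. Maf lost this call with no filter and without replicate 1, 2 or 3 of adult Hap-I WD or replicate 1, 2 or 4 of adult Hap-I, with adjusted p of 0.0513 to 0.141. Esrrb lost its call without replicate 1 or replicate 2 of adult Hap-I WD. The largest change was that of Hnf4a, at 92.4 ± 17.2 TPM with WD and at most 0.0375 TPM without (log2 change 6.50). No p-value is given for Esrrb and Hnf4a here, because both passed the filter only through the other 16 libraries.

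Age was also compared between aged and adult Hap-I mice without WD. Only Tfcp2l1 and Maf passed the filter on low values there, and neither was called, where 0.0296% of 13497 genes were called (2081 at an unadjusted p below 0.05). Tfcp2l1 averaged 1.86 ± 0.436 TPM in the aged group and 1.46 ± 0.592 TPM in the adult group (log2 difference 0.24, adjusted p = 0.575). Hnf4a had 0.138, 0.321, 0.585 and 0.0449 TPM in aged and 0, 0.0375, 0 and 0.0357 TPM in adult libraries, without overlap, and its exact two-sided permutation p of 0.0286, the smallest that 4 against 4 can give, was 0.171 after adjustment over the 6 factors under the filter. The age difference on WD minus that without WD was not called for any factor (lowest adjusted p = 0.707, for Pax2).

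The factors lie on 6 chromosomes (GRCm38, GENCODE M21). The intervals are chr2:163506808-163572910 for Hnf4a (ENSMUSG00000017950), chr3:3508030-3658052 for Hnf4g (ENSMUSG00000017688), chr19:44756045-44837871 for Pax2 (ENSMUSG00000004231) and chr2:24420560-24475599 for Pax8 (ENSMUSG00000026976). They are chr12:86361117-86521628 for Esrrb (ENSMUSG00000021255), chr1:118627945-118685168 for Tfcp2l1 (ENSMUSG00000026380), chr1:19208914-19238576 for Tfap2b (ENSMUSG00000025927) and chr8:115682942-115707794 for Maf (ENSMUSG00000055435). All 8 are annotated as protein coding. Exons of Pax8 overlap those of the opposite-strand transcript Gm13415 by 367 bases and exons of Maf overlap those of Gm15655, also on the opposite strand, by 440 bases, and Tfcp2l1 overlaps the same-strand small RNA gene Gm23497 by 130 bases. The kit is a stranded kit by the labels, but the sources used here do not say whether the quantification used strand, so reads of Pax8 and Maf may include some of these. At most 5.10% of the 31-base words of any factor occurred in another gene.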

How the data were processed

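RNA of 24 mouse samples was sequenced, after poly(A) selection with a stranded Illumina kit per the labels' protocols. The authors deposited 1 table of TPM per gene and library, and kallisto and GRCm38 are named, without versions or roles, per the submitters' processing notes. TPM sums were 904693 to 944019 per library, and depth is unknown. Of 30153 identifiers, 29732 were matched to symbols in GENCODE M21. All 24 columns were matched to samples by title.

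From the deposited TPM, log2(TPM + 1) was fitted with limma 3.58.1 (R 4.3.3; group means, trended variance, two-sided). Genes had to reach 1 TPM in 4 or more libraries of a fit to be tested, and p-values were adjusted over all of them with a threshold of 0.05. The kidney comparisons used 16 libraries, age without WD used 8, and comparisons across them used all 24. Factors under the filter had exact permutation tests. The script was tested on simulated data. Alternatives changed the pseudocount (0.1), the filter (none, or 5 TPM), scaling, mitochondrial genes, libraries fitted, the replicate block, a Y-linked covariate and single libraries. The factors, gene lists, markers and comparisons were chosen with earlier results of these data known. Other genes named are all those called in a list where 6 or fewer were, otherwise among the 4 with the largest change in each direction, plus a few listed genes as levels and the 2 genes most like each factor. A few results that this rule would name are not reported here.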

Additional observations from a re-analysis of the deposited data

Results flagged for a closer look

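Of 48 groups of 4 libraries, 8 factors by 6 groups, 6 held a library farther from the others than Dixon's 95% limit allows, and chance flags about 1 group in 20. The values are the gap to the nearest library divided by the range of the group. In C57 adults, replicate 1 stood below the others for Maf (9.01 against 20.2 to 21.3 TPM, 0.910 of the range), Tfcp2l1 (17.6 against 59.2 to 65.7 TPM, 0.866) and Tfap2b (4.65 against 10.9 to 11.95 TPM, 0.856). Replicate 4 of the same group stood above the others for Pax2 (13.7 against 6.37 to 7.03 TPM, 0.910). In aged Hap-I mice on WD, replicate 2 stood above the others for Esrrb (8.18 against 2.34 to 3.07 TPM, 0.875). In aged Hap-I mice without WD, replicate 2 was the only library with Hnf4g above 0 (0.0693 TPM, 1.00).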

How the results depend on the processing

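Esrrb was called lower relative to C57 under all 17 alternatives in adult Hap-I and Hap-II WD mice (-2.71 to -1.47 and -2.12 to -1.18) and under 16 of 17 in aged Hap-I WD mice (-2.25 to -1.38). In adult Hap-I WD over C57, Pax8 was called under all 17, Pax2, Tfcp2l1 and Tfap2b under 15 each, and Hnf4a under 8. In Hap-II WD over C57, Pax8 was called under 12 of 17 and Pax2 under 5. Factors called in adult Hap-I WD over C57 were 6, but 2 after median-of-ratios rescaling and 2 with a Y-linked covariate, and the cause was not tested in any of these cases. In aged Hap-I WD over C57 they were 1, but 3 in a fit of all 24 libraries and 2 without the libraries with the fewest genes. In Hap-II WD over C57 they were 3, but 5 with all 24 libraries (where 6615 of 15200 genes were called lower), 1 with the Y-linked covariate and 1 without the libraries with the fewest genes. Leaving out single libraries gave 0 to 4 in aged Hap-I WD (0 without C57 replicate 4, 4 without aged replicate 2, 3 without C57 replicate 1), 1 to 6 in Hap-II WD (6 without Hap-II replicate 1, 5 without C57 replicate 1, 1 without Hap-II replicate 3 or C57 replicate 4) and 5 to 6 in adult Hap-I WD. The Y-linked covariate and the omission of the libraries with the fewest genes were chosen after seeing the data. Genes called lower numbered 7715 in adult Hap-I WD over C57 (1779 rescaled, 3155 with the Y-linked covariate, 5800 to 7788 with single libraries left out). In aged Hap-I WD they numbered 2100 (796 with a pseudocount of 0.1, 1141 with the filter at 5 TPM, 494 rescaled, 443 without mitochondrial genes, 4508 with all 24 libraries, 403 with the covariate, 3354 without the libraries with the fewest genes, 304 to 4584 with single libraries left out), and in Hap-II WD 4774 (1216 rescaled, 1742 with the covariate, 2054 without the libraries with the fewest genes, 1678 to 6511 with single libraries left out). Genes called higher with age on WD numbered 3 (411 with all 24 libraries, 5 with no filter, 2 to 20 with single libraries left out), and genes called lower by haplotype 7 (4 with the replicate block, 2 without the libraries with the fewest genes, 2 to 4 with single libraries left out).

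Some changes turned sign, of which that of Hnf4a in adult Hap-I WD over C57 was called. Rescaling gave -0.24 for Hnf4g with age on WD, 0.061 for Hnf4a by haplotype, and over C57 0.35, 0.092 and 0.031 for Hnf4a and 0.53, 0.47 and 0.51 for Maf in aged Hap-I, adult Hap-I and Hap-II WD mice. Removing mitochondrial genes gave 0.17 for Maf in aged Hap-I WD. The Y-linked covariate gave -0.0440 and -0.13 for Hnf4g in aged and adult Hap-I WD, and 0.21 and 0.081 for Maf in aged Hap-I and Hap-II WD. Without the libraries with the fewest genes Hnf4g was -0.21 with age and 0.020 by haplotype, and Maf 0.034 in Hap-II WD. With single libraries left out, Hnf4g ranged from -0.21 to 0.18 with age, from -0.19 to 0.28 in adult and from -0.16 to 0.19 in aged Hap-I WD over C57, Hnf4a from -0.46 to 0.11 in aged Hap-I WD, and Maf from -0.51 to 0.0057 by haplotype, -0.31 to 0.17 in aged Hap-I WD, -0.49 to 0.034 in Hap-II WD and -0.10 to 0.056 with age without WD. The ratios to Hnf4a in aged Hap-I WD ranged from -0.020 to 0.50 for Hnf4g and -0.066 to 0.37 for Maf, and with age without WD Hnf4g ranged from 0 to 0.032 and Tfap2b from -0.020 to 0.017.

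Whether replicate numbers pair samples is not settled. Between WD groups, 10 of 24 best matches were with the same number, each among 4 candidates. Correlations of same-numbered WD libraries ran from -0.13 to 0.54, so this check cannot exclude pairing. With the replicate block 0 factors were called for age on WD and 0 for haplotype. For WD in Hap-I adults 6 were called higher, where 2273 of 13710 genes were. That comparison crosses the divide in neuronal content, so its count is a description, with the limit of the filter given above. TPM keep no depth, so what depth limits is unknown.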
